A study of Arabidopsis thaliana with 36 samples.

Results

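Roots of the Arabidopsis thaliana mutant fls2, which lacks the flagellin receptor FLS2, are described here with and without the flagellin peptide flg22. Of the 36 RNA sequencing libraries of the study, 12 carry the genotype label fls2, and these were taken by that label. They form 4 groups of 3: fls2 with Fe and flg22, fls2 without Fe and with flg22, fls2 with Fe alone, and fls2 without Fe alone, so 6 flg22-treated libraries stand against 6 untreated ones. The same 4 treatments of Col-0 wild type (WT), another 12 libraries, give the size of the response in plants that have the receptor. The 12 libraries of the line UBQ10::mCitrine-IMA1 were not compared. They entered the count filter, the scaling, values over all libraries and the shared estimate of spread between replicates. Seedlings 7 days old, grown on plates with Fe, were kept for 24 h in liquid medium with 75 uM Fe ("with Fe") or in medium lacking Fe with 50 uM of the Fe chelator FerroZine ("without Fe"), and flg22 was given at 100 nM. RNA of one library came from about 15 pooled roots, which the labels count as one biological replicate, so p-values here measure the spread between such pools. The labels give the mutant as fls2 with no allele name, and the pools hold whole roots, so cell types were not separated.

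flg22 is a conserved stretch of bacterial flagellin. FLS2, a receptor kinase with leucine-rich repeats in the plasma membrane, binds it and joins the co-receptor BAK1, and the kinase BIK1, the oxidase RBOHD and MAP kinase cascades then act on defence genes such as FRK1 and several WRKY transcription factors. Roots take up Fe by reduction at the surface through FRO2 and import through IRT1, both under the transcription factor FIT. The comparison in fls2 asks which transcripts differ after flg22 when the receptor is missing, and whether Fe supply alters that.

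Totals of the fls2 libraries ran from 31315531 to 40903411 counts, within the range of 28130566 to 40903411 over all 36. The median Spearman correlation of a library with the others of its group lay between 0.995 and 0.997 in fls2, a measure over all genes at once. Values are given as CPM, counts scaled to library depth with TMM factors, and a gene is called changed at a Benjamini-Hochberg adjusted p under 0.05 of the edgeR quasi-likelihood test over the 20354 genes tested. Intervals are 95% intervals from that fit, and fold changes are log2 of flg22-treated over untreated. Of the root markers, SCR, a transcription factor of the endodermis, was present at 54.1 to 64.1 CPM in the 12 fls2 libraries. Green tissue markers were not absent: 10 photosynthesis genes summed to 171 to 268 CPM in flg22-treated fls2 roots and 169 to 260 CPM in untreated fls2 roots, against 369 to 604 CPM in flg22-treated WT and 212 to 346 CPM in untreated WT. The part of these markers in the differences between fls2 and WT was not tested.

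The mutated gene itself was checked first. FLS2 (AT5G46330) had 6 counts in the 6 flg22-treated fls2 libraries together, 4 of them with Fe and 2 without Fe, and 0 counts in the 6 untreated fls2 libraries, where a count of 0 allows up to 3 counts. The 12 WT libraries held 1356 counts, 244 times the fls2 level per count sequenced. In WT, FLS2 stood at 5.01 ± 0.749 CPM (SD, n = 3) with Fe and flg22 and at 1.20 ± 0.402 CPM with Fe alone, and at 6.02 ± 1.17 CPM with flg22 but no Fe and 2.29 ± 0.0832 CPM without both. No fold change is given for FLS2 in fls2, since it would rest on 6 counts.

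flg22 left no called change in the fls2 transcriptome. None of the 20354 genes passed the threshold in fls2 averaged over both Fe supplies (0%), and the lowest adjusted p was 0.389 by the edgeR test. At an unadjusted p under 0.05 there were 978 genes (4.80%), 416 higher and 562 lower with flg22. limma on the deposited normalised table also called 0 genes, and DESeq2 called 1, AT1G67150. Leaving out replicate 3 of untreated fls2 without Fe likewise gave 1 called gene, again AT1G67150. The same contrast in WT called 10757 genes (52.8%), 5529 higher (27.2%) and 5228 lower (25.7%).

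The size of this null result is bounded by the intervals. In fls2 the central 95% of genes had log2 fold changes between -0.37 and 0.27, against -1.16 and 1.08 in WT. For 19365 genes (95.1%) the whole interval in fls2 lay within 2-fold of no change, and for 17969 genes (88.3%) within 1.5-fold, with a median half-width of 0.14 on the log2 scale. Over all genes tested, whatever their p, 95 (0.467%) had an estimated change of 2-fold or more in fls2, and 1234 (6.06%) in WT. In simulated data with this design, 100 genes were changed 2-fold and 100 others 1.5-fold with flg22 in fls2, all at once. The averaged fls2 comparison recovered 94% and 86% of them, with 6 false calls among 20301 genes. The adjusted p depends on how many genes change, so these rates do not carry over to data in which few genes change. Non-overlap between the 6 flg22-treated and 6 untreated libraries was seen for 27 genes in fls2 (0.133%) and for 4568 genes in WT (22.4%).

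**Figure D1:**
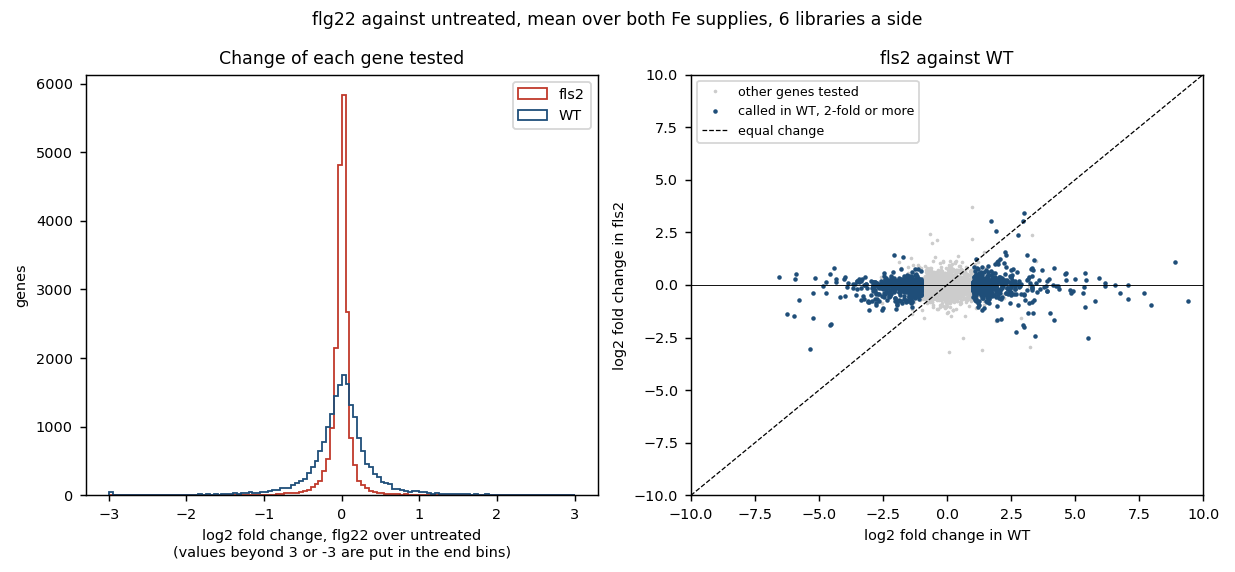
Left, number of genes by log2 fold change of flg22 over untreated, mean over both Fe supplies, in fls2 (red) and WT (blue). Right, the change in fls2 on the vertical axis against the change in WT on the horizontal axis, one point per gene, with the 1153 genes called in WT at 2-fold or more in blue: these spread along the horizontal axis and lie about 0 on the vertical one.

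The test of the genotype difference, flg22 effect in fls2 minus flg22 effect in WT, called 7802 genes (38.3%), 3819 with a positive (18.8%) and 3983 with a negative difference (19.6%). Libraries were not shared between the fls2 and WT contrasts. Of the 555 genes (2.73%) that rose at least 2-fold in WT, 0 were called in fls2, their median log2 fold change was -0.03 in fls2 and 1.52 in WT, and for 463 (83.4%) the difference was called. Of the 598 genes (2.94%) that fell at least 2-fold in WT, 0 were called in fls2, the medians were -0.04 in fls2 and -1.50 in WT, and for 492 (82.3%) the difference was called. Both sets were chosen by the WT change, which enters the difference. Their WT medians and counts of called differences are therefore a description. The fls2 interval still reached the WT estimate for 50 of the 555 (9.01%) and 19 of the 598 (3.18%). The whole fls2 interval lay within 2-fold of no change for 339 of the 555 and 450 of the 598. Across all 20354 genes the Pearson correlation of the change in fls2 with that in WT was 0.05, and across the 1153 genes it was 0.09, given as a description since genes are not replicates.

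Genes of the receptor complex had narrow intervals about 0 in fls2. Leaving FLS2 aside, the 19 other genes of the flagellin receptor complex and pattern receptors had log2 fold changes between -0.08 and 0.06 in fls2, with every interval inside -0.29 to 0.23. Of the 20 genes on this list 0 were called in fls2, while in WT 14 rose and 3 fell, and the difference was called for 14, 2 of them positive and 12 negative. Over all genes tested, 27.2% rose and 25.7% fell in WT, and the difference was called positive for 18.8% and negative for 19.6%. This list and those below were chosen with earlier results of these data known. Their shares beside those of all genes are therefore a description. BIK1 (AT2G39660), the kinase that passes the signal on from the receptor, had 30.5, 34.5 and 37.9 CPM (lowest, median and highest of 6) in flg22-treated fls2 roots, against 32.4, 34.6 and 37.2 CPM in untreated fls2 roots. In WT it had 53.5, 56.1 and 59.7 CPM with flg22 and 33.4, 37.3 and 39.5 CPM without. The fls2 libraries overlapped completely, and all flg22-treated WT libraries lay above all others. The log2 fold change of BIK1 was -0.01 in fls2 (interval -0.12 to 0.10) and 0.62 in WT, a difference of -0.63 (interval -0.78 to -0.48, adjusted p = 1.89e-07).

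IOS1 (AT1G51800), a receptor kinase that associates with FLS2, had 48.3, 50.9 and 56.3 CPM in flg22-treated fls2 roots, against 47.3, 49.3 and 57.2 CPM in untreated fls2 roots. Its log2 fold change was 0.00 in fls2 (interval -0.13 to 0.14), against 0.99 in WT, where flg22-treated libraries had 99.5, 110 and 127 CPM and untreated ones 43.9, 56.7 and 70.4 CPM. The difference was -0.98 (adjusted p = 8.82e-09). MIK2 (AT4G08850), another pattern receptor kinase, had a log2 fold change of -0.07 in fls2 (interval -0.24 to 0.10) and 0.97 in WT. BAK1 (AT4G33430), the co-receptor, had a change of -0.02 in fls2 (interval -0.08 to 0.04) and a small one of 0.16 in WT, with a called difference of -0.18 (adjusted p = 6e-04). RBOHD (AT5G47910), the oxidase that makes the oxidative burst, ran the other way in WT with -0.54, against -0.08 in fls2 (interval -0.28 to 0.11).

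The kinases below the receptor had small log2 fold changes at the median in both genotypes. None of 11 MAP kinases and calcium-dependent kinases was called in fls2, with a median of 0.01, and 4 rose and 1 fell in WT, with a median of 0.04; 5 of 11 called is no more than the 52.8% of all genes called in WT. MPK3 (AT3G45640), a MAP kinase of the flagellin cascade, was the member of lowest unadjusted p in fls2: it had 62.7, 67.2 and 72.0 CPM with flg22 and 59.3, 61.6 and 67.6 CPM without, groups that overlap. Its log2 fold change was 0.12 in fls2 (interval 0.01 to 0.22, adjusted p = 0.996) and 0.35 in WT, and the difference of -0.23 was called (adjusted p = 0.00974).

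Immunity marker genes rose in WT and were not called in fls2. In fls2 0 of 19 tested were called, their median was 0.02 and they ranged from -0.29 to 0.26, while in WT 18 rose, 0 fell and the median was 1.1. The difference was called for 16 of the 19, all 16 negative, against 19.6% of all genes called negative. FRK1 (AT2G19190), a receptor-like kinase gene read out in flagellin assays, had 0.0631, 0.279 and 0.413 CPM in flg22-treated fls2 roots, against 0.0614, 0.255 and 0.38 CPM in untreated fls2 roots. In WT roots it had 19.4, 23.6 and 28 CPM with flg22 and 0.201, 0.29 and 0.532 CPM without. So treated fls2 roots held FRK1 at the level of untreated roots of either genotype, with 52 counts over the 6 treated and 46 over the 6 untreated fls2 libraries, against 4296 and 62 counts in WT. The log2 fold change was 0.11 in fls2, with a wide interval of -1.77 to 2.0, and 6.18 in WT. The difference was -6.06 (interval -8.74 to -3.39, adjusted p = 7.47e-04), and -5.47 (adjusted p = 0.0447) without replicate 1 of untreated fls2 with Fe. FRK1 was among the 10 genes of largest WT rise and low in fls2, so this difference is a description.

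WRKY30 (AT5G24110), a transcription factor gene of the early defence response, followed the same pattern, with 0.0947, 0.121 and 0.599 CPM in flg22-treated and 0.0614, 0.151 and 0.39 CPM in untreated fls2 roots, against 6.43 to 18.2 CPM in flg22-treated WT. Its difference was -5.17 (adjusted p = 3.37e-04), also a description, since WRKY30 was among the 10 genes of largest WT rise and low in fls2. MYB51 (AT1G18570), a regulator of indole glucosinolate synthesis, had enough counts for a tight bound. It had 4.03, 5.35 and 6.41 CPM in flg22-treated fls2 roots, against 3.99, 5.73 and 6.39 CPM in untreated ones, and 17.4, 20.5 and 26.4 CPM in flg22-treated WT against 4.93, 5.63 and 9.36 CPM in untreated WT. The change was 0.00 in fls2 (interval -0.37 to 0.36) and 1.76 in WT, with a difference of -1.76 (adjusted p = 4.11e-06). CYP81F2 (AT5G57220), an enzyme of that pathway, had -0.29 in fls2 (interval -0.92 to 0.34) and 1.71 in WT, a difference of -2.01 (adjusted p = 4.18e-04).

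WRKY33 (AT2G38470), the regulator of camalexin synthesis, had 34.8, 42.1 and 51.0 CPM in flg22-treated fls2 roots, against 31.2, 35.6 and 46.8 CPM in untreated ones. Treated libraries lay slightly higher but overlapped untreated ones, with a change of 0.17 (interval -0.06 to 0.39), against 0.97 in WT and a difference of -0.80 (adjusted p = 2.39e-04). PUB22 (AT3G52450), a ubiquitin ligase that dampens pattern signalling, had 0.06 in fls2 (interval -0.06 to 0.19) and 0.97 in WT. The peroxidase genes PER4 (AT1G14540) and PER5 (AT1G14550) were low in all fls2 libraries, at most 3.81 and 0.42 CPM, against at least 33.4 and 22.6 CPM in flg22-treated WT. Untreated WT already held 5.53 to 18.2 CPM of PER4, above every fls2 library, and 0.17 to 5.08 CPM of PER5. The difference for PER4 was -2.02 (adjusted p = 1.03e-04). For PER5 it was -5.02 (adjusted p = 0.00384), a call that was lost without replicate 2 of untreated fls2 without Fe (-4.25, adjusted p = 0.0573). PER5 passed the count filter through groups where it is high. NHL10, ERF104 and ZAT12 were the 3 markers whose difference did not pass.

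**Figure D2:**
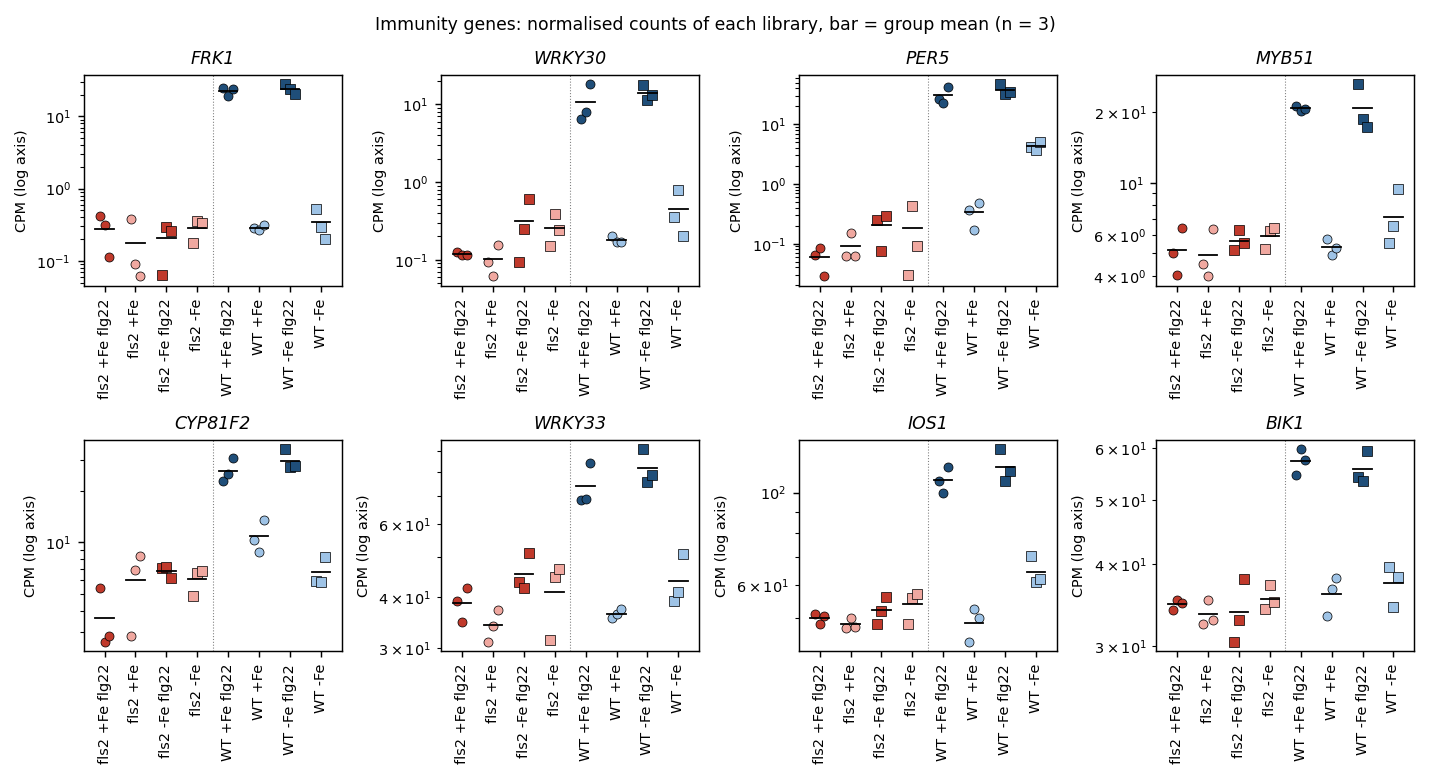
CPM on a log axis of 8 immunity genes in each library: from left to right fls2 with Fe and flg22, fls2 with Fe, fls2 without Fe and with flg22, fls2 without Fe, then WT in the same order, with a bar for the mean of 3 libraries. The flg22-treated fls2 libraries lie among the untreated ones, and the flg22-treated WT libraries lie above them.

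Hormone genes were likewise not called in fls2. Ethylene genes had a median of -0.04 in fls2 with 0 of 11 called, and a median of 0.51 in WT with 8 higher and 1 lower, against 27.2% and 25.7% of all genes. ACS7 (AT4G26200), which makes the ethylene precursor, had 1.48, 1.74 and 1.91 CPM in flg22-treated fls2 roots, against 1.56, 1.83 and 2.20 CPM in untreated ones and 5.94 to 7.39 CPM in flg22-treated WT. The groups of fls2 overlapped, and the difference in response was -1.65 (adjusted p = 1.17e-06). Salicylic acid and pipecolate genes had 0 of 12 called and a median of -0.02 in fls2, and 4 higher and 4 lower in WT, close to the shares of all genes called there (27.2% higher and 25.7% lower).

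Jasmonate genes held the larger single values among the hormone lists in fls2, none of them called. The list of 13 had a median of 0.10 in fls2, with 10 genes above 0 and 3 below, and 7 of them rose in WT, against 27.2% of all genes. AOS (AT5G42650), which makes the jasmonate precursor, had 40.5, 43.5 and 50.5 CPM in flg22-treated fls2 roots, against 31.2, 40.5 and 45.1 CPM in untreated ones. Its change of 0.18 (interval 0.05 to 0.31) had an unadjusted p of 0.00878 and an adjusted p of 0.996 in the edgeR test, and WT had 0.22. VSP1 (AT5G24780), a vegetative storage protein induced by jasmonate, had 68.8, 83.3 and 102 CPM with flg22 in fls2, against 90.2, 134 and 155 CPM without. Treated libraries were mostly lower, with a change of -0.57 (interval -0.98 to -0.15, adjusted p = 0.996). In WT, VSP1 had 39.2, 45.6 and 71.5 CPM with flg22 and 36.2, 65.3 and 103 CPM without, so its median was lower with flg22 there too. The related VSP2 (AT5G24770) had -0.92 in fls2 (interval -1.70 to -0.14, adjusted p = 0.996) and 0.49 in WT. The difference of -1.41 for VSP2 passed narrowly (adjusted p = 0.0459) and was lost in many of the fits that leave out 1 library, for example without replicate 1 of WT with Fe (-1.19, adjusted p = 0.0839), and with no filter on low counts (adjusted p = 0.0551).

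Fe uptake genes were not called in fls2 when flg22 was given, and fell in WT. Of 16 FIT-dependent uptake and coumarin genes 0 were called in fls2 (median 0.02, 8 above and 8 below 0, highest 0.80, 12 with an interval within 2-fold), while 13 fell in WT (median -1.83), and the difference was called for 12, all positive, against 18.8% of all genes called positive. Of 16 Fe deficiency regulators 0 were called in fls2 (median 0.03), while 13 fell in WT (median -0.64), against 25.7% of all genes, and the difference was called for 11, all positive. Some WT falls were not called in the edgeR fit of WT alone: BHLH100 (adjusted p = 0.0792), OPT3 (0.137), MYB72 (0.0661) and F6'H1 (0.11). The MYB72 difference was lost in edgeR with the compared genotypes alone (adjusted p = 0.0698) and with a replicate block (0.0518). IRT1 (AT4G19690), the root Fe importer, had 317.7, 216.3 and 168 CPM in the 3 fls2 libraries with Fe and flg22, against 116, 382 and 383 CPM with Fe alone. Without Fe it had 1313, 1498 and 1505 CPM in fls2 with flg22, against 1172, 1348.5 and 1359.6 CPM without flg22. In fls2 the level of IRT1 thus differed between Fe supplies, and flg22-treated libraries overlapped untreated ones both with Fe and without Fe.

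In WT without Fe, IRT1 had 285, 90.3 and 258 CPM with flg22, against 1689, 1225 and 1166 CPM without. The log2 fold change of IRT1 averaged over Fe supply was -0.09 in fls2 (interval -1.05 to 0.88) and -2.48 in WT, with a difference of 2.39 (interval 1.0 to 3.78, adjusted p = 0.00706). The value moved to 3.65 without replicate 3 of WT with Fe and flg22, the WT library of that group with most IRT1. Within a supply, the IRT1 difference was 2.84 without Fe (adjusted p = 0.0351), a call lost in 8 of the fits that leave out 1 library, for example without replicate 2 of WT without Fe and with flg22 (2.49, adjusted p = 0.0843), and 1.94 with Fe (interval -0.04 to 3.91), which did not pass (adjusted p = 0.156). FRO2 (AT1G01580), the ferric reductase, had -0.09 in fls2 (interval -1.12 to 0.94) and -2.48 in WT, and a difference of 2.39 (adjusted p = 0.0112), or 3.72 without the same library. DESeq2 gave FRO2 no adjusted p.

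FIT (AT2G28160), the transcription factor over both, was tighter among replicates. It had 48.0, 49.7 and 39.2 CPM in fls2 with Fe and flg22, against 34.7, 40.2 and 49.5 CPM with Fe alone. Without Fe it had 96.7, 95.9 and 89.2 CPM in fls2 with flg22, against 66.3, 78.4 and 83.9 CPM without flg22, so the treated libraries lay above the untreated ones in that supply. This change of 0.30 (interval -0.04 to 0.64) had an adjusted p of 0.996. FIT in WT without Fe had 24.8 to 29.7 CPM with flg22, against 68.8 to 93.0 CPM without, a change of -1.55. The difference between genotypes was 1.40 over both supplies (interval 1.04 to 1.75, adjusted p = 1.22e-06), 1.85 without Fe (adjusted p = 1.41e-05) and 0.94 with Fe (adjusted p = 0.00961). BHLH38 (AT3G56970), a partner of FIT, had -0.01 in fls2 (interval -0.67 to 0.65) and -1.64 in WT, with a difference of 1.63 (adjusted p = 0.00897), or 2.40 without replicate 3 of WT with Fe and flg22. Fe storage genes had 0 of 7 called in fls2 and a median of 0.01. IMA1 and IMA2 on the regulator list are similar enough that their reads may be split between them.

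**Figure D3:**
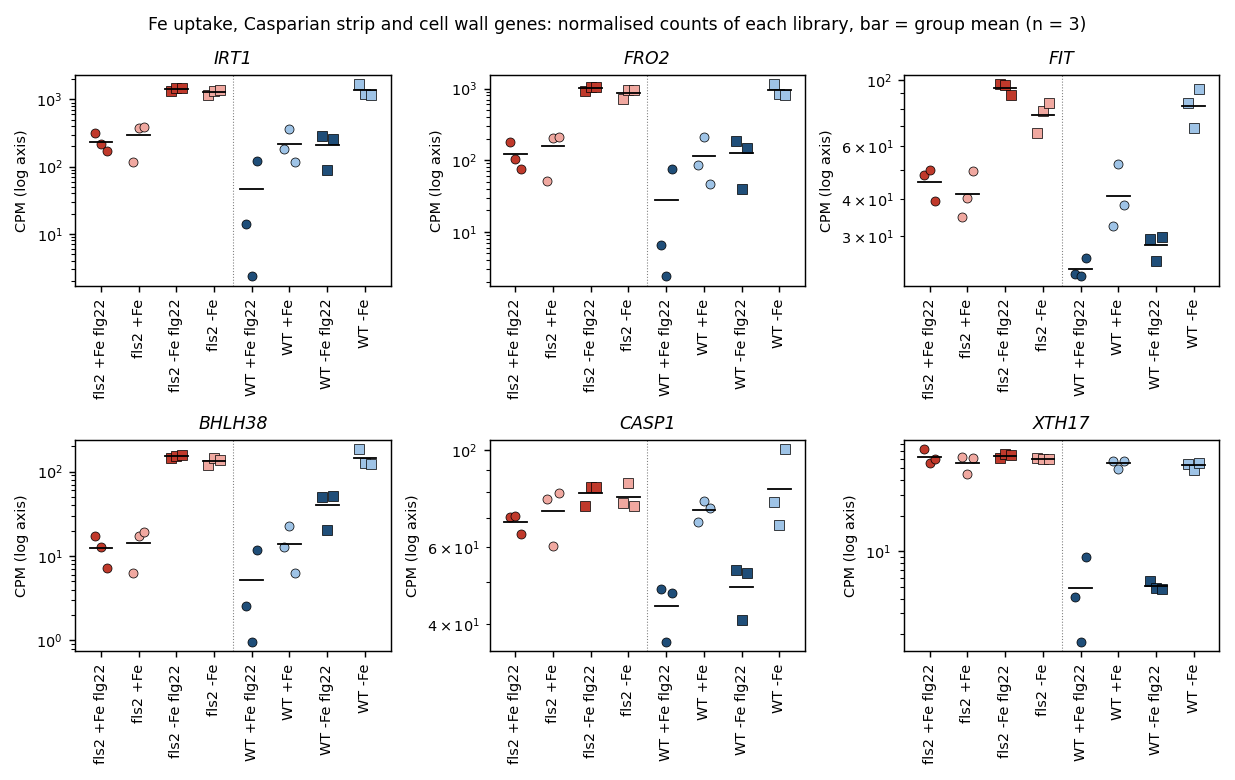
CPM on a log axis of 6 genes in each library: from left to right fls2 with Fe and flg22, fls2 with Fe, fls2 without Fe and with flg22, fls2 without Fe, then WT in the same order, with a bar for the mean of 3 libraries. In fls2, IRT1, FRO2, FIT and BHLH38 differ by Fe supply and overlap between flg22-treated and untreated libraries for at least one supply; in WT the flg22-treated means lie lower for all 6 genes.

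Genes of root differentiation were not called in fls2 either. Of 9 Casparian strip genes, which build the diffusion barrier of the endodermis, 0 were called in fls2 (median 0.04), while 7 fell in WT (median -0.78), and the difference was called for 7, all positive, against 18.8% of all genes. CASP1 (AT2G36100), a scaffold protein of the strip, had 64.1, 72.6 and 82.5 CPM in flg22-treated fls2 roots, against 60.3, 76.4 and 84.2 CPM in untreated ones. In WT it had 36.5, 47.7 and 53.1 CPM with flg22 and 67.4, 75.0 and 100 CPM without, groups that do not overlap. Its change was -0.03 in fls2 (interval -0.20 to 0.15) and -0.73 in WT, with a difference of 0.71 (adjusted p = 8.04e-05). CASP5 (AT5G15290), its paralog, had 0.46 in fls2 (interval 0.08 to 0.84), with an unadjusted p of 0.0197 and an adjusted p of 0.996 in the edgeR test, and -1.55 in WT. In whole roots, fewer cells of a type and less RNA per cell cannot be told apart.

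Root hair genes had 0 of 7 called in fls2 (median -0.04), with 1 higher and 4 lower in WT, against 27.2% and 25.7% of all genes. The difference was called for 3 of 7, all positive, against 38.3% of all genes with a called difference and 18.8% with a positive one. PRP3 (AT3G62680), a root hair cell wall protein, had -0.10 in fls2 (interval -0.49 to 0.29) and -1.08 in WT, with a difference of 0.98 (adjusted p = 0.00534). Suberin genes, for the later barrier, had 0 of 8 called and a median of -0.03 in fls2.

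The genes of largest WT change were not called in fls2. XTH17 (AT1G65310), a cell wall remodelling enzyme, had 55.8, 62.8 and 72.4 CPM in flg22-treated fls2 roots, against 44.6, 60.5 and 62.4 CPM in untreated ones. Its change was 0.13 in fls2 (interval -0.43 to 0.69) and -3.44 in WT, where flg22-treated libraries had at most 8.88 CPM, with a difference of 3.57 (adjusted p = 1.37e-06). AGP30 (AT2G33790), an arabinogalactan protein of the root, had 65.1, 102 and 153 CPM in flg22-treated fls2 roots, against 42.2, 91.3 and 118 CPM in untreated ones. That is 23012 counts over the 6 treated and 17461 over the 6 untreated fls2 libraries, against 249 and 15085 in WT. The change was 0.26 in fls2 (interval -0.42 to 0.95) and -5.95 in WT, a difference of 6.21 (adjusted p = 9.66e-08).

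Among the 10 WT genes of largest rise, fls2 counts were low on both sides, at most 116 over the 6 flg22-treated and 143 over the 6 untreated libraries. CYP71B22, a cytochrome P450 gene, had 3 counts over the 6 flg22-treated and 3 over the 6 untreated fls2 libraries, against 1638 and 4 in WT, and 9 of 12 fls2 libraries held none. Its fls2 interval of -5.18 to 3.65 shows that a change in fls2 could not be bounded at this depth, and the difference did not pass (adjusted p = 0.169). For AT4G28420, with 24 counts in treated and 11 in untreated fls2 libraries, the difference did not pass either (adjusted p = 0.0831). It passed for the other 8 rising genes and for all 10 falling ones, which is a description, since these genes were chosen by the WT change that enters the difference and the rising ones passed the count filter through groups where they are high. AT2G43620, given by its locus, had 116 counts in treated and 143 in untreated fls2 libraries, against 14603 and 153 in WT.

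Clock genes rose modestly in WT and were not called in fls2. Of 8 tested, 0 were called in fls2 (median -0.04), while 6 rose and 1 fell in WT, and 6 differences were called, all negative, against 27.2% of all genes higher in WT and 19.6% with a negative difference. CCA1 (AT2G46830), a morning transcription factor of the clock, had 28.1, 30.4 and 31.6 CPM in flg22-treated fls2 roots, against 28.1, 30.02 and 33.3 CPM in untreated ones. The change was -0.01 in fls2 (interval -0.14 to 0.13) and 0.90 in WT, with a difference of -0.91 (adjusted p = 2.53e-08). Photosynthesis genes had 0 of 10 called in fls2 (median 0.02), with 7 higher in WT and 7 negative differences called, above the same shares of all genes. GAPB (AT1G42970), a chloroplast enzyme of the Calvin cycle, had 0.02 in fls2 (interval -0.24 to 0.28) and 1.08 in WT.

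In a pair of lists every tested gene was below 0 in fls2, without a call. Over all genes tested, 52.0% were above 0 in fls2. Genes of a list can move together from library to library, and their signs were not tested as a set. All 5 nitrate genes were below 0, with a median of -0.31 in fls2 and -0.73 in WT. NIA1 (AT1G77760), a nitrate reductase, had 111, 153 and 212 CPM in flg22-treated fls2 roots, against 165, 179 and 253 CPM in untreated ones, groups that overlap. Its change was -0.31 in fls2 (interval -0.81 to 0.20), and -2.87 in WT, a difference of 2.56 (adjusted p = 8.66e-06). The paralog NIA2 (AT1G37130) had -0.32 in fls2 (interval -0.61 to -0.03, adjusted p = 0.996) and -0.02 in WT.

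All 7 genes induced by low oxygen were below 0 in fls2, with a median of -0.49, against -1.54 in WT, where 6 fell, against 25.7% of all genes. ADH1 (AT1G77120), an alcohol dehydrogenase of fermentation, had 36.5, 70.0 and 170 CPM in flg22-treated fls2 roots, against 46.4, 159 and 386 CPM in untreated ones, a wide spread on both sides. Its change was -0.87 in fls2 (interval -2.27 to 0.52) and -2.79 in WT (-1.71 without replicate 1 of WT with Fe), and the difference did not pass (adjusted p = 0.136). LBD41 (AT3G02550), a transcription factor of the low oxygen response, had -0.49 in fls2 (interval -0.91 to -0.07, adjusted p = 0.996) and -0.88 in WT. The 7 genes summed to 147 to 376 CPM in flg22-treated fls2 libraries and to 140 to 784 CPM in untreated ones. PCO2 was the 1 member with a called difference, a call lost in 8 of the fits that leave out 1 library, for example without replicate 1 of WT with Fe (0.98, adjusted p = 0.126). It was also lost in edgeR with a replicate block (adjusted p = 0.0543) and with the compared genotypes alone (adjusted p = 0.0617). limma on the deposited signal did not call it either (adjusted p = 0.063). The part of low oxygen in these differences was not tested.

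**Figure D4:**
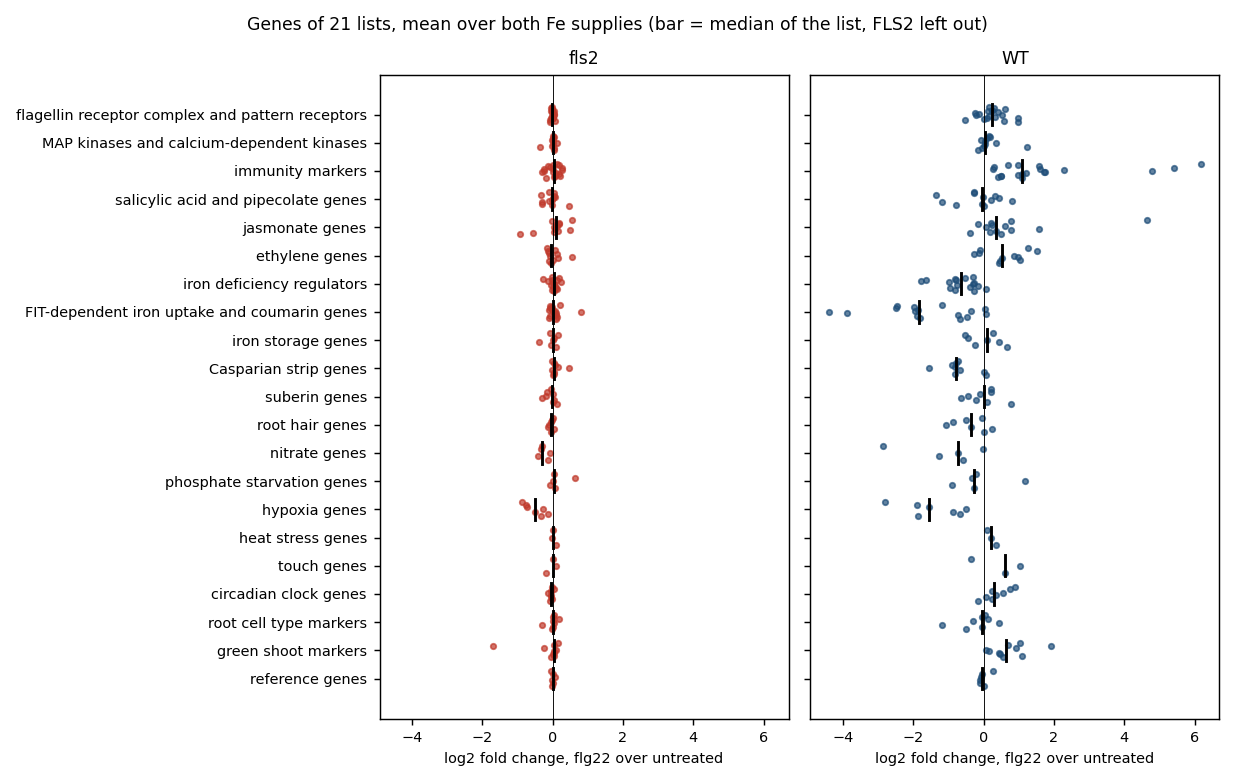
Log2 fold change of flg22 over untreated for each tested gene of 21 lists, mean over both Fe supplies, in fls2 (left) and WT (right), with a bar for the median of each list and FLS2 left out. In fls2 the medians lie between -0.49 for hypoxia genes and 0.10 for jasmonate genes, and in WT between -1.83 for FIT-dependent genes and 1.1 for immunity markers.

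Across all lists, 202 of 210 genes were tested. In fls2 0 of them were called and 10 had an unadjusted p under 0.05, FLS2 among them, close to the 4.80% of all genes, and in 177 the interval lay within 2-fold. The flg22-treated and untreated groups did not overlap for 0 of the 202 genes in fls2 and for 67 in WT, where 22.4% of all genes did not overlap. In WT 145 were called, against 52.8% of all genes, and for 114 the difference between fls2 and WT was called, against 38.3% of all genes. The lists were chosen with earlier results of these data known, so these WT and difference counts are a description. PR1, PR2, PR5, ACS8 and SPX3 had too few counts to be tested, and PUB24, HSP90.1 and PRR5 were not analysed here.

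Fe supply as the second factor brought no called response to flg22 in fls2 either. With Fe, 0 genes were called in fls2 (0%), with 648 at an unadjusted p under 0.05 (3.18%) in the edgeR test and 0 by DESeq2 and limma. Without Fe, 0 were called (0%), with 807 at an unadjusted p under 0.05 (3.96%) and again 0 by the other tools. The interaction of flg22 with Fe supply called 0 genes (0%), with 521 at an unadjusted p under 0.05 (2.56%) and 0 by the other tools. Its intervals were wider, with a median half-width of 0.27 against 0.14 for the averaged comparison. They lay within 1.5-fold for 72.2% of genes, and no recovery rate is given for the interaction. In the simulated data, where many genes were changed at once, 2-fold changes were recovered in 89% of genes with Fe and 87% without Fe. These rates do not carry over to data in which few genes change. In WT, flg22 called 8170 genes (40.1%) with Fe and 7118 genes (35%) without Fe, and the fls2 minus WT difference was called for 4113 genes (20.2%) with Fe and 4318 genes (21.2%) without Fe. Leaving out 1 library moved the count with Fe to 2673 without replicate 1 and to 2539 without replicate 2 of WT with Fe and flg22.

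By list, the called genotype differences were counted within each Fe supply; whether the 2 supplies differ in them was not tested. Among the 16 Fe deficiency regulators it was called for 15 without Fe, all positive, and for 1 with Fe, a negative one, where 10.2% of all genes tested were called positive without Fe and 10.4% negative with Fe. Among the 16 FIT-dependent genes it was called for 13 without Fe and 4 with Fe, all positive, against 9.86% of all genes called positive with Fe. Several calls without Fe were lost in other settings. The edgeR fit of the compared genotypes alone did not call IRT1 (adjusted p = 0.0872), FRO2 (0.0735), S8H (0.0945) and CYP82C4 (0.0668). BHLH38 (0.0546) and BHLH100 (0.0939) of the regulators did not pass there either. DESeq2 did not call MYB72 (0.074) and S8H (0.078), nor IMA3 (0.26) and BHLH100 (0.13) of the regulators. Immunity markers had 12 of 19 called without Fe and 16 of 19 with Fe, all negative, against 11% of all genes called negative without Fe. In fls2 alone, the regulators had a median of 0.09 without Fe and 0.01 with Fe, and the FIT-dependent genes 0.13 and -0.05, with 15 of 16 above 0 without Fe and 5 of 16 with Fe. Over all genes tested the fls2 medians were 0.002 without Fe and 0.0007 with Fe. The signs within a list were not tested.

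The same 12 fls2 libraries resolved the other factor. Fe deficiency, 6 fls2 libraries without Fe against 6 with Fe, called 2664 genes (13.1%), 1166 higher (5.73%) and 1498 lower (7.36%), and 1760 without replicate 2 of fls2 with Fe and flg22. All 16 Fe deficiency regulators rose (median 2.51), 15 of 16 FIT-dependent genes rose (median 1.52) and all 7 Fe storage genes fell (median -1.14). Green tissue markers moved in the same contrast, with 6 of 10 called lower, all 10 below 0 and a median of -0.42; their part in it was not tested. FIT rose by 0.96 (interval 0.71 to 1.21, adjusted p = 2.56e-06) and BHLH38 by 3.42 (adjusted p = 8.09e-08). Summed over genes, 28.4% of the variance of log2 CPM among the fls2 libraries lay between Fe supplies and 8.64% between flg22-treated and untreated libraries, against 10.4% and 53.8% among the WT libraries. The first principal component of the fls2 libraries held 30.3% of the variance, of which 89.5% lay between Fe supplies and 1.99% between flg22 treatments. The fourth, with 8.07% of the variance, was the one most divided by flg22 (50.7% of it). It was picked as the highest of 11 components, and any split of the libraries takes some of the variance. Neither this share nor the 8.64% was tested, and neither supports a response to flg22. On the first component, replicate 3 of fls2 with Fe alone (-9.52) and replicate 1 of fls2 with Fe and flg22 (-6.5) stood apart. The other fls2 libraries with Fe lay between -24.63 and -20.61.

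The genes of lowest p in fls2 are given as values, since none was called. Of the 20, 7 were higher and 13 lower with flg22, 3 did not overlap between the groups, and all 20 had the same sign with and without Fe. Choosing by the p of the mean over both supplies favours genes of one sign and separated groups, so neither count supports a change. In WT 11 of them were called, close to the 52.8% of all genes, 7 in the same and 4 in the opposite direction. The difference was called for 12, a count that the choice by the fls2 value helps to set. AT1G67150 had 5.53, 5.99 and 6.75 CPM in flg22-treated fls2 roots, against 3.21, 4.58 and 5.15 CPM in untreated ones, with every treated library above every untreated one, as for 0.0639% of all genes tested. Its change was 0.44 (interval 0.26 to 0.62, unadjusted p = 1.91e-05, adjusted p = 0.389 in the edgeR test and 0.028 in DESeq2), against 0.05 in WT, and the difference of 0.39 was called (adjusted p = 0.0114).

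EXT4, an extensin of the cell wall, was the most abundant of the 20 and rose in WT, with no call in fls2. It had 446, 668 and 1014 CPM in flg22-treated fls2 roots, against 787, 1120 and 1253 CPM in untreated ones, so treated libraries were mostly lower. In WT it had 2627, 2974 and 3781 CPM with flg22 and 1133, 1365 and 1565 CPM without. The change was -0.71 in fls2 (interval -1.06 to -0.36, adjusted p = 0.996), -0.54 with Fe and -0.88 without Fe, and 1.15 in WT. The difference of -1.86 was called (interval -2.35 to -1.37, adjusted p = 2.28e-06), -1.82 with Fe and -1.90 without Fe.

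JAL22, a jacalin-related lectin, had 378, 509 and 525 CPM in flg22-treated fls2 roots, against 534, 732 and 904 CPM in untreated ones, groups that do not overlap, with all treated libraries lower as for 0.0688% of genes tested. Its change was -0.55 in fls2 (interval -0.82 to -0.28, adjusted p = 0.996) and -0.06 in WT. The difference of -0.49 (adjusted p = 0.0388) lost its call in 14 of the fits that leave out 1 library, of either genotype, for example without replicate 2 of fls2 with Fe (-0.40, adjusted p = 0.097). AT1G72850, the third that did not overlap, had 6.12, 6.54 and 7.53 CPM in flg22-treated fls2 roots, against 4.08, 5.26 and 6.02 CPM in untreated ones, a change of 0.35. RHA2A, a RING finger ubiquitin ligase, had -0.26 in fls2 (interval -0.38 to -0.15, adjusted p = 0.909) and 0.12 in WT. PCK1, the phosphoenolpyruvate carboxykinase of gluconeogenesis, had -0.15 (interval -0.23 to -0.07, adjusted p = 0.996), with 421 to 472 CPM with flg22 and 466 to 519 CPM without. SEOR1, a filament protein of the phloem, had -0.35 in fls2 (adjusted p = 0.996) and -0.49 in WT, where it was called. The other 13 had changes between -0.43 and 0.63.

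**Figure D5:**
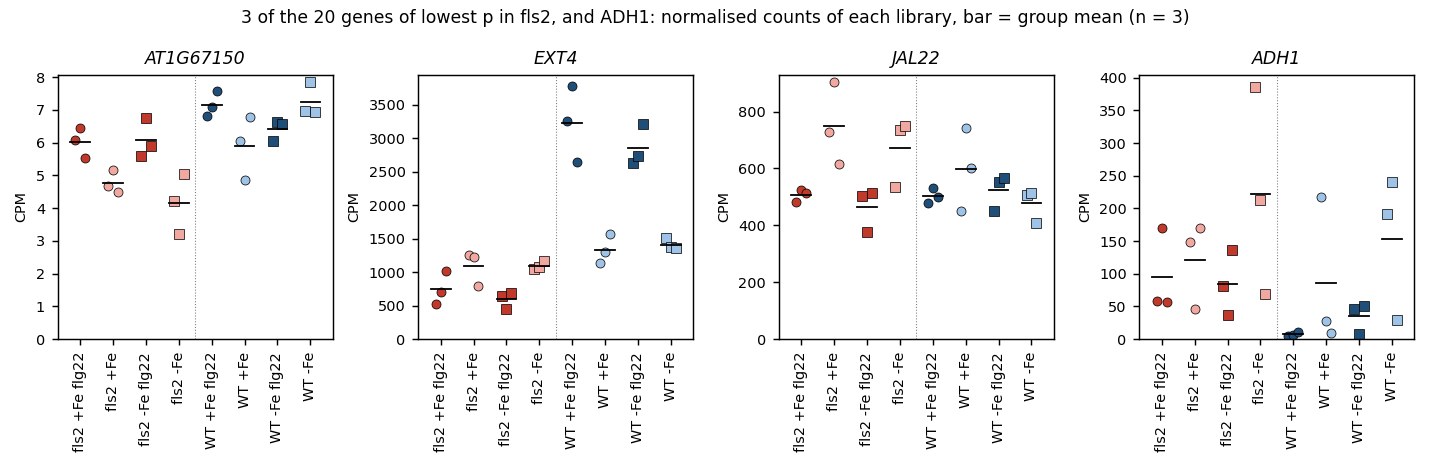
CPM on linear axes from 0 of AT1G67150, EXT4, JAL22 and ADH1 in each library: from left to right fls2 with Fe and flg22, fls2 with Fe, fls2 without Fe and with flg22, fls2 without Fe, then WT in the same order, with a bar for the mean of 3 libraries. Treated fls2 libraries lie above untreated ones for AT1G67150 and below them for JAL22, EXT4 overlaps in fls2 and is higher with flg22 in WT, and ADH1 spreads widely.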

How the data were processed

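Root RNA was sequenced in 12 groups of 3 libraries. The deposited table holds raw counts per gene made by the authors; per the submitters' processing notes, STAR 2.7.0a, edgeR 3.36.0 and the TAIR10 build were used, in roles the notes do not state. The counting tool and its strand setting are not given in the sources used here, so reads of overlapping or antisense genes may be mixed. A second deposited table holds a normalised signal made by the authors, which stood at 0.954 to 1.03 times the CPM of the counts, and it served only as an alternative.

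Of 24532 genes, 20354 passed filterByExpr (minimum count 10). edgeR 4.0.16 in R 4.3.3 was used with TMM scaling and robust quasi-likelihood fits of 12 group means over all 36 libraries, and p-values were adjusted by Benjamini-Hochberg over all genes tested at a threshold of 0.05. Contrasts were flg22 in fls2 (mean, with Fe, without Fe, and the interaction), Fe deficiency in fls2, flg22 in WT, and fls2 minus WT. The WT and fls2 minus WT contrasts within one Fe supply, and the fits without each WT library, were added after the data were seen.

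Genes named were FLS2, members of 21 gene lists, the 20 genes of lowest p in fls2 and the 10 WT changes of largest size each way with at least 5 CPM in a WT group. Members and lists were chosen with earlier results of these data known, and the list members given as examples were picked after their values were seen. Alternatives were RLE size factors, library totals, no filter, a filter of 5 CPM in 3 libraries, DESeq2 1.42.0, limma 3.58.1 on log2 of the deposited signal plus 1, a fit of the compared genotypes alone (fls2, WT, or both for the difference), a replicate block, and each library left out. The fits were tested on simulated counts. Intervals reflect the spread between libraries as fitted, and the floor of 3 counts covers counting error only. No promoter or other sequence was analysed here.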

Additional observations from a re-analysis of the deposited data

Results flagged for a closer look

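The results below stand out because the effect of flg22 differed between fls2 and WT by the edgeR test of the difference itself, fls2 minus WT. Over both Fe supplies this held for 7802 genes, with Fe for 4113 and without Fe for 4318. The genes named next were chosen by their change in WT, which enters that difference, so their values are a description.

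Of the genes with the largest rise in WT, the log2 difference was -7.04 for AT2G41810 (-5.94, adjusted p = 0.0426, without replicate 1 of fls2 with Fe), -7.13 for AT2G43620, -6.06 for FRK1, and -6.54 for AT5G38930. It was -5.17 for WRKY30, -6.44 for GSTU12 (-7.50 without replicate 1 of WT with Fe), -5.45 for AT3G20360 and -5.65 for AT1G67270. In fls2 these 8 genes had between 24 and 116 counts over the 6 flg22-treated libraries and between 23 and 143 over the 6 untreated ones, and they passed the count filter through groups where they are high.

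Of the genes with the largest fall in WT, the difference was 6.21 for AGP30, 4.47 for AT3G19430, 4.59 for AT3G06460 and 3.70 for AT3G04330. It was 3.57 for XTH17 and 4.35 for AT5G62330 (5.09 without replicate 2 of WT without Fe and with flg22). AT5G46900 with 4.80 and AT5G46890 with 3.79 are near-identical copies, so their counts may be split between them.

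Values of a pair of coumarin genes of the Fe deficiency response moved when single libraries were left out, and S8H lost its call. CYP82C4 had a difference of 3.96, against 3.08 without replicate 2 of WT with Fe and 5.38 without replicate 3 of WT with Fe and flg22. S8H had 5.20, a call lost without replicate 1 of fls2 with Fe and flg22 (3.42, adjusted p = 0.184) and without replicate 2 of WT with Fe (3.39, adjusted p = 0.0775). It had 5.99 without replicate 3 of fls2 with Fe and 6.84 without replicate 3 of WT with Fe and flg22.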

How the results depend on the processing

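The count of genes called for flg22 in fls2 was 0 in every alternative run except 2, each with 1 gene, AT1G67150: DESeq2 (1 gene) and the fit without replicate 3 of fls2 without Fe. Over the fits that leave out 1 library it ranged from 0 to 1. With Fe, without Fe and for the interaction it stayed at 0. Fe deficiency in fls2 called 1760 to 2946 genes when 1 library was left out. The fls2 minus WT difference with Fe called 2539 to 5177, with 2673 without replicate 1 of WT with Fe and flg22. Counts for flg22 in WT (9399 to 10995) and for the overall difference (7044 to 8311) stayed within 1.5 times the values reported. No called value of a followed gene changed sign, while uncalled values near 0 did: IRT1 in fls2 was 0.03 without replicate 2 or replicate 3 of fls2 with Fe. Some calls of followed genes were lost under other settings, such as the PCO2 difference and the IRT1 difference without Fe. Replicate numbers did not pair the libraries: 4 of 18 same-numbered pairs had a correlation of deviations over 0.1 (range -0.277 to 0.175). With a replicate block, flg22 in fls2 called 0 genes, flg22 in WT 10669, the difference 7708 and Fe deficiency in fls2 2585. Within one Fe supply the block gave 7992 and 6983 genes in WT with and without Fe, and 3914 and 4159 for the difference. Depth limits genes near 0 counts in fls2, such as CYP71B22, whose intervals span many-fold changes. With 3 libraries a group, changes under 1.5-fold were not examined for recovery.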

Other observations

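An average of at least 5 CPM over all libraries, which genes can reach through flg22-treated groups of other genotypes, and an estimated change of 2-fold or more in fls2, without a call, were found together in 4 genes. They were named after their values were seen, and all 4 had medians under 2 CPM in fls2. SWEET12, a sucrose exporter, had 0.519, 1.85 and 11.7 CPM (lowest, median and highest of 6) in flg22-treated fls2 roots, against 0.491, 0.944 and 2.03 CPM in untreated ones. One treated library, replicate 3 without Fe, stood at 11.7 CPM and the groups overlapped. The log2 change was 1.57 (interval 0.05 to 3.09, adjusted p = 0.996 in the edgeR test), against 2.27 in WT, and the difference did not pass (adjusted p = 0.585). SWEET11, its close relative, had 0.23, 0.84 and 9.37 CPM in flg22-treated fls2 roots, against 0.368, 0.479 and 2.06 CPM in untreated ones, with the highest value in the same library. HOL2 had 0.127, 0.405 and 1.43 CPM with flg22 in fls2 and 0.092, 0.231 and 0.584 CPM without, a change of 1.20 (interval -0.41 to 2.81). GSTU12, a glutathione transferase, had -1.05 (interval -3.28 to 1.18).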
